A study of Mus musculus with 36 samples.

Results

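Unstimulated enteric glial cells (EGCs) were compared between 12 h and 6 h, the first step of the time course in the untreated arm of the study. The comparison used 8 of the 36 libraries of the series, 4 labelled unstimulated at 6 h and 4 labelled unstimulated at 12 h. The members were defined by those labels, with earlier results of these data known. All cells were primary wild-type murine EGCs grown from neurospheres of embryonic C57BL/6J intestine, and no conditioned medium was given to these groups. The sources used here do not say whether the culture medium of unstimulated EGCs was changed at the start of the time course, so the time label is read as the labels give it. Unstimulated EGCs at 24 h (4 libraries) and EGCs given conditioned medium of digested MC38 orthotopic colorectal tumors (TME-CM EGCs, 4 libraries each at 6 h and 12 h, WT) served as comparison groups. The labels do not say that the 4 libraries of a group came from separate cultures, so the p-values measure the spread between these libraries, which may be technical.

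Enteric glia are the neural crest-derived support cells of the enteric nervous system. They surround enteric neurons, and in culture they are recognized by SOX10, S100B and GFAP. Neurosphere cultures of embryonic intestine can also carry mesenchymal cells, among them smooth muscle cells, myofibroblasts and fibroblasts. Gene activity was read by 3′ mRNA sequencing, in which an oligo-dT primer copies RNA from its poly(A) end, so that each count stands for a transcript end and not for a position along the gene.

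Between 6 h and 12 h, 10 of the 10143 genes tested passed the test (adjusted p under 0.05 in edgeR's quasi-likelihood test with Benjamini-Hochberg adjustment), which is 0.0986% of them. Only 2 of these genes rose (0.0197%): Gadd45g, a stress- and growth arrest-induced GADD45 family member, and Dlk1, an imprinted transmembrane protein of the delta-like family known from progenitor cells. The 8 genes that fell (0.0789%) were 6 transcripts of the mitochondrial genome, the imprinted nuclear long non-coding RNA Kcnq1ot1 and the replication-dependent histone gene Hist1h2ao. At an unadjusted p under 0.05 there were 790 genes, 394 higher and 396 lower at 12 h. The number of calls moved with the libraries used. Leaving out any 12 h library, or replicate 1 at 6 h, left 1 gene, Gadd45g. Leaving out 6 h replicate 2 left 2 genes, leaving out 6 h replicate 3 gave 38, and leaving out the 2 doubted 6 h libraries together (replicates 3 and 4, described next; chosen after seeing the data) gave 81. Every one of these fits kept Gadd45g, and the 10 genes were all among the 38 and among the 81.

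The 6 h libraries were less alike than the 12 h libraries. Total counts were 256453 to 4631102 at 6 h and 2005239 to 5961933 at 12 h (exact permutation test, two-sided, p = 0.229), and between 9509 and 13599 genes had a count at 6 h against 13467 to 16962 at 12 h (exact permutation test, two-sided, p = 0.0571 with 0.171 after adjustment over 6 library measures; 4 against 4 libraries cannot give less than 0.0286). Replicate 3 at 6 h held 256453 counts, so that 3 counts there correspond to 11.7 CPM (counts per 1e6 counts of the library). Its median correlation across genes with the other 7 libraries was 0.652, and that of replicate 4 at 6 h was 0.747, while the other 6 libraries lay between 0.838 and 0.875. The common dispersion estimated within 6 h was 0.435 (a biological coefficient of variation of 0.659) and within 12 h 0.0735 (0.271). Whether replicate 3 at 6 h came from the same kind of culture as the others, or holds some RNA of another sample, is not given in the labels and was not tested. Time accounted for 17.5% of the total variance between libraries (exact permutation test over the 35 ways of dividing 8 libraries in equal groups, p = 0.114).

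**Figure D1:**
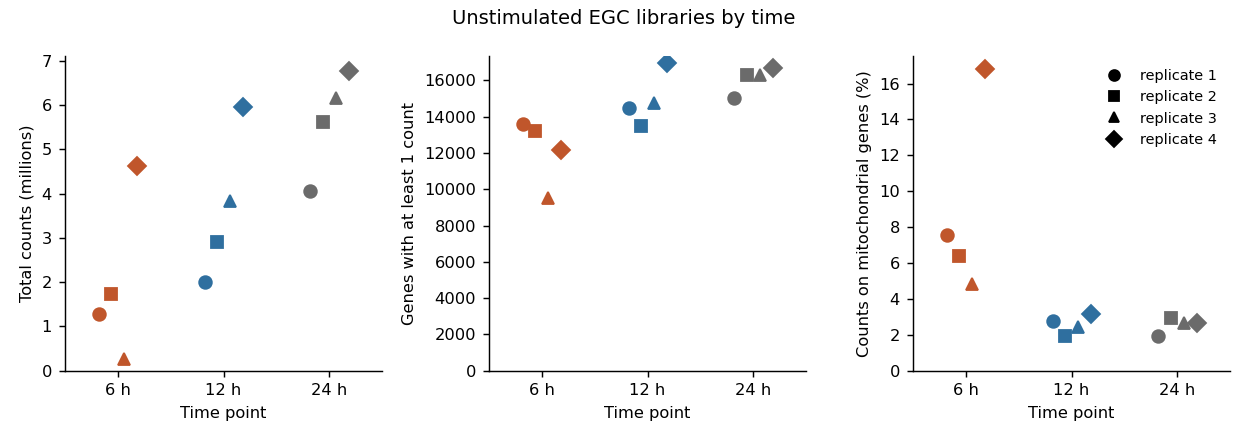
Total counts (axis in units of 1e6), number of genes with at least 1 count and the percentage of counts on mitochondrial genes, for each unstimulated library by time (4 libraries per time, marker shape gives the replicate). Replicate 3 at 6 h is the smallest library, and all 4 libraries of 6 h lie above all libraries of 12 h in mitochondrial share.

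The cells carried glial transcripts at both times. Of 17 enteric glial identity genes 16 were tested, and none passed the test in either direction, with a median log2 fold change of -0.34 beside -0.03 over all genes tested. Changes were negative in 14 and positive in 2 (47.9% of all genes tested were positive). In 1 of the 16 every 12 h library lay below every 6 h library (2.11% of all genes). Sox10, the transcription factor that defines the glial lineage, averaged 54.8 CPM at 6 h and 56.4 CPM at 12 h (log2 fold change -0.02, SE 0.38). S100b (-0.46, SE 0.33), a calcium-binding protein of glia, did not pass and overlapped between times, and Gfap, with 78 counts over the 8 libraries, was too low to be tested. The members of this list with the highest level were Vim (2165 ± 202 CPM at 6 h and 1999 ± 169 CPM at 12 h, SD, n = 4), Ngfr and Apoe. Transcripts of other cells were present too: Acta2, the actin of smooth muscle cells and myofibroblasts, averaged 1972 CPM at 6 h and 3165 CPM at 12 h. That is the same order as Vim and far above Sox10 at both times. The share of glia among the cells was not tested.

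Gadd45g was the gene with the lowest p-value. Its level was 36, 30, 24.7 and 23 CPM in replicates 1 to 4 at 6 h, and 134, 206, 163 and 166 CPM at 12 h. Every 12 h library lay far above every 6 h library, with a log2 fold change of 2.55 (SE 0.29, edgeR adjusted p = 0.00405). Behind these values stood 36, 43, 5 and 118 counts at 6 h and 294 to 1387 counts at 12 h, so that the smallest library gave only 5 counts. Gadd45g was the only gene that passed in every one of 19 alternative fits, with log2 fold changes between 2.13 and 2.70. The other members of its family, named here after their values were seen, did not pass: Gadd45b had a log2 fold change of 0.80 (SE 0.38, adjusted p = 0.637) and Gadd45a of 0.10 (SE 0.42, adjusted p = 0.97). At 24 h Gadd45g stood at 168 to 190 CPM, and the change from 12 h to 24 h was -0.06 (log2, SE 0.22).

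Dlk1 stood at 215, 310.2, 168 and 277 CPM at 6 h and at 816, 819, 759 and 938 CPM at 12 h. The groups did not overlap, and the log2 fold change was 1.77 (SE 0.27, edgeR adjusted p = 0.0203). Its 6 h counts were 215, 445, 34 and 1424. It passed in 12 of 19 alternative fits, and in 2 of the 8 fits that leave out a library (6 h replicate 3 or 4), while its log2 fold change stayed between 1.65 and 1.92. Of the non-coding RNAs of the same imprinted cluster, which are made from the other parental chromosome, Meg3 had a log2 fold change of -0.44 (SE 0.43, adjusted p = 0.827) and Rian, chosen after its value was seen, of -1.96 (SE 0.56, adjusted p = 0.344, though it passed without 6 h replicate 3, where it had 0 counts). At 24 h Dlk1 stood at 842 to 1040.0 CPM (log2 change from 12 h 0.11, SE 0.22).

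The promoters of these genes are shown because they are the ones whose transcripts rose. Each is the 250 bases directly before the gene's start in RefSeq (GRCm38.p6, the build called mm10 in the study, plus strand), with the letters TATAAA and CCAAT, searched on both strands, in capitals. Gadd45g lies at chr13:51846678-51848468 in GENCODE M21 and its window at chr13:51846425-51846674. Dlk1 lies at chr12:109452823-109463336 and its window at chr12:109452573-109452822. No exon of another gene overlaps either gene.
Gadd45g: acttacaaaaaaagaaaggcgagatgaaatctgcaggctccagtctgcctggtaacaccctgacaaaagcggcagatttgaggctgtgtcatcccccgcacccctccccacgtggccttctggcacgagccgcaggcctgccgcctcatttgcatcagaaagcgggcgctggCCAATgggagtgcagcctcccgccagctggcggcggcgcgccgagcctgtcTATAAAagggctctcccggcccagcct
Dlk1: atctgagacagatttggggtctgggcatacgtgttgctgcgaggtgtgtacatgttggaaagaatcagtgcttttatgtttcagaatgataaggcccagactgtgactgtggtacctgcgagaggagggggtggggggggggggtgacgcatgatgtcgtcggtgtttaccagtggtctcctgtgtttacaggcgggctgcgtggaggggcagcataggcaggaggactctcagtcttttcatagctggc
The Gadd45g window holds 1 TATAAA and 1 CCAAT, and the Dlk1 window holds neither. Of 32851 such windows in the mouse table, 12.4% hold TATAAA and 33.8% hold CCAAT, so these matches only describe the letters.

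By the same rule of naming, the rising side was filled with the 4 genes of lowest p that did not pass. Ece1, the endothelin-converting enzyme, stood at 86.0, 87.1, 98.9 and 74.0 CPM at 6 h and at 223, 211, 272 and 221 CPM at 12 h (log2 fold change 1.44, SE 0.26, edgeR adjusted p = 0.0501). Lmod1, an actin filament nucleator of smooth muscle, stood at 25, 25.1, 4.94 and 40.1 CPM against 184, 98.8, 92.4 and 114 CPM (2.17, SE 0.39, adjusted p = 0.0516). Myh10, the heavy chain of non-muscle myosin IIB, stood at 313, 184, 237 and 235 CPM against 823, 471, 759 and 651 CPM (1.48, SE 0.28, adjusted p = 0.0708). Myh11, the smooth muscle myosin heavy chain, stood at 37.0, 25.8, 14.8 and 31.7 CPM against 95.9, 70.2, 96.2 and 82.4 CPM (1.57, SE 0.31, adjusted p = 0.0795). In each of the 4 genes, which were taken by lowest p, all 12 h libraries were above all 6 h libraries (4.58% of all genes tested). Without 6 h replicate 3 all 4 passed, as Ece1, Lmod1, Myh10 and Myh11 were among the 38 genes of that fit.

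**Figure D2:**
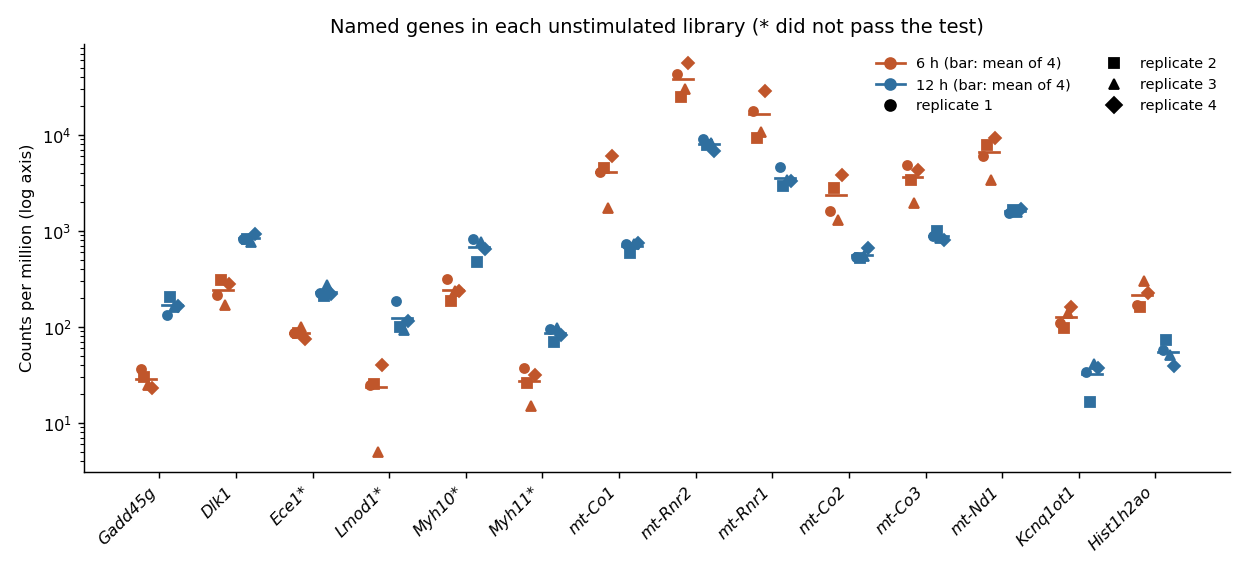
CPM on a log axis for the 14 named genes in the 4 libraries of 6 h and the 4 of 12 h (marker shape gives the replicate, bars the mean of 4). The groups do not overlap in any of the 14 genes, which was a condition of naming for the called genes. The 4 genes with an asterisk did not pass the test and were taken by lowest p.

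Smooth muscle contractile genes had positive changes throughout, although none of the 13 passed the test in these 8 libraries (0 called, where 0.0986% of all genes tested were). These genes encode the actin, myosin, tropomyosin and regulatory proteins of the contractile filaments. Their log2 fold changes were positive in 13 of 13 (47.9% of all genes tested were positive), with a range from 0.37 to 2.17 and a median of 0.87. At an unadjusted p under 0.05, 10 of the 13 were higher, against 3.88% of all genes tested, and in 8 of 13 every 12 h library lay above every 6 h library, against 4.58% of all genes. The list was drawn up with earlier results of these data known, so these shares describe the data and are not an independent test. Cald1 (caldesmon) stood at 1175, 1068, 816 and 1179.8 CPM at 6 h and 2707, 2184, 2356 and 2676 CPM at 12 h (log2 fold change 1.22, SE 0.25, adjusted p = 0.105). Tpm1 (tropomyosin 1) stood at 1262, 1284, 1092 and 1312 CPM against 2372, 2341, 2087 and 2129 CPM (0.85, SE 0.24, adjusted p = 0.341). In these genes no libraries overlapped, whereas Acta2 did overlap, at 1857, 1914, 994 and 3125 CPM against 2982, 3179.7, 3178 and 3322 CPM (0.68, SE 0.31, adjusted p = 0.636).

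Summed over the list, contractile transcripts took 6380, 6190, 4040 and 7500 CPM at 6 h and 11600, 11400, 10900 and 11000 CPM at 12 h, so that the lowest library of 12 h was above the highest of 6 h. Such a gap was not particular to this list. Sums were also higher in all 12 h libraries for BMP pathway genes (754 to 1410 against 1440 to 1540 CPM) and ER chaperone genes (2710 to 3590 against 3690 to 4010 CPM). They were lower in all 12 h libraries for immediate early, ERK feedback, metallothionein, interferon-stimulated and glucocorticoid-responsive genes. The list's median was 0.86 without 6 h replicate 3 and 0.82 without replicates 3 and 4. In the former fit Cald1, Lmod1 and Myh11 passed (3 of 13, where 0.344% of genes passed), and in the latter Tpm1 passed as well (4 of 13, where 0.731% passed). In bulk RNA a larger share of cells of a type and more RNA per cell cannot be told apart. Fibroblast markers, which would mark another mesenchymal cell, had a median of 0.72 over 7 tested genes, of which none passed. The summed level of fibroblast markers was 389 to 781 CPM at 6 h and 887 to 1160 CPM at 12 h, and their part in the contractile result was not tested. The CArG box, the binding motif of serum response factor, was searched as CC, then 6 letters of A or T, then GG, without mismatch. It was found in the 250 bases before the start of 1 of the 10 contractile genes that have a RefSeq promoter entry (Myl9), and in 1.47% of all such windows. Boxes with a changed letter, or outside the window, would be missed. Tagln, Myh11 and Actg2 had no entry.

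None of the 23 extracellular matrix genes tested passed, and this list too was drawn up with earlier results of these data known. Positive changes numbered 21 of 23 (47.9% of all genes tested), 10 were higher at an unadjusted p under 0.05 (3.88% of all genes), and in 8 every 12 h library lay above every 6 h library (4.58% of all genes), with a median log2 fold change of 0.62. Sparc, a collagen-binding glycoprotein and the most abundant member, averaged 3644 ± 1129 CPM at 6 h and 5820.0 ± 498 CPM at 12 h (SD, n = 4, log2 fold change 0.67, SE 0.29, adjusted p = 0.596). Col1a1, the chain of type I collagen, averaged 2882 ± 1373 CPM and 3109 ± 331 CPM (0.11, SE 0.37), a difference well within the spread. Timp2, a metalloproteinase inhibitor, averaged 1239 ± 635 CPM and 1793 ± 203 CPM (0.53, SE 0.36). Fibronectin (Fn1) and the basement membrane collagens Col4a1 and Col4a2, chosen after their values were seen, had some of the largest changes. Fn1 stood at 424, 317, 158 and 296 CPM at 6 h and at 767, 591, 751 and 964 CPM at 12 h (1.35, SE 0.31, adjusted p = 0.196), and Col4a1 at 681, 709, 420 and 658 CPM against 1134, 1289, 1220.2 and 1284 CPM (0.99, SE 0.26, adjusted p = 0.268).

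In the matrix list the smallest library weighed heavily. Replicate 3 at 6 h had a summed matrix level of 5560 CPM where the other 6 h libraries had 14400 to 16700 CPM, and the 12 h libraries had 18100 to 19400 CPM. Without it the median change was 0.46 and positive changes numbered 18 of 23, with Fn1 alone passing. The ranges of 6 h and 12 h did not overlap with or without it, which was also so for the sums of the other lists named above.

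**Figure D3:**
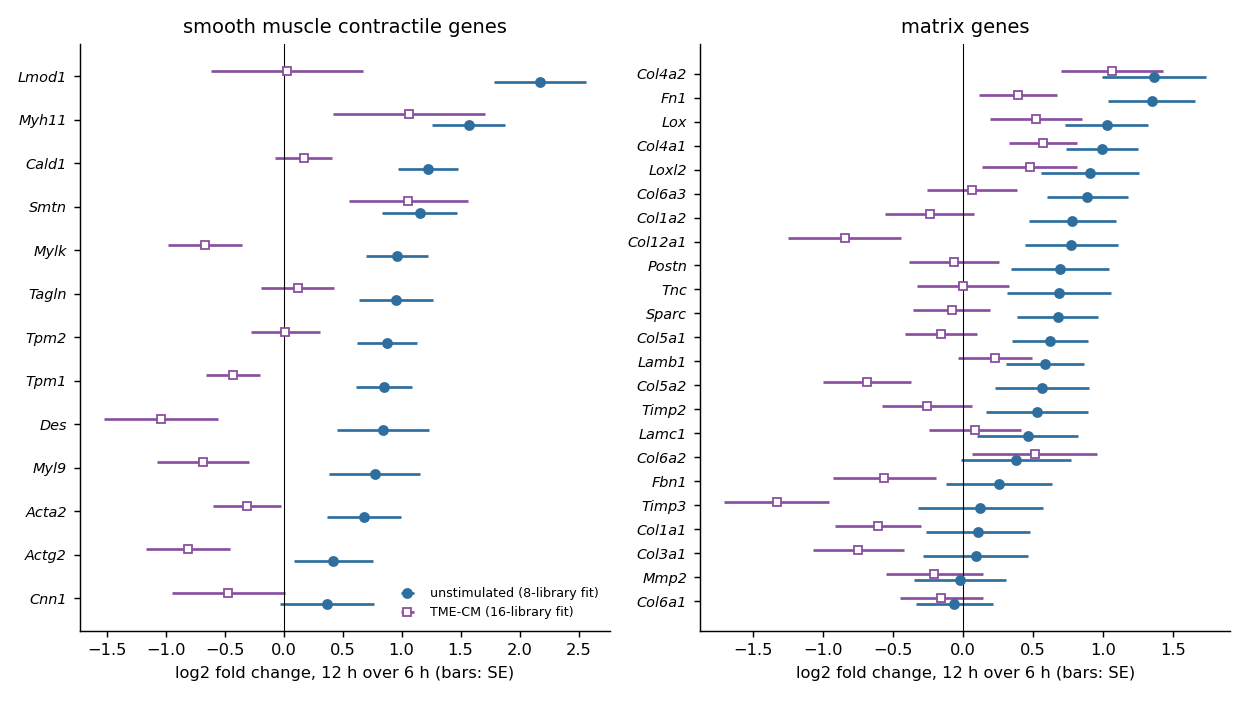
Log2 fold changes from 6 h to 12 h with their standard errors for 13 smooth muscle contractile genes and 23 matrix genes, in unstimulated EGCs (filled circles) and in TME-CM EGCs (open squares). In unstimulated EGCs 13 of 13 contractile and 21 of 23 matrix changes are positive, and in TME-CM EGCs 6 of 13 and 10 of 23 are.

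Transcripts of the mitochondrial genome made up the larger part of the fall. The mitochondrial genome encodes subunits of the respiratory chain and the ribosomal and transfer RNAs needed to translate them. Counts on mitochondrial genes were 7.561%, 6.395%, 4.834% and 16.79% of all counts in replicates 1 to 4 at 6 h, and 2.787%, 1.931%, 2.454% and 3.181% at 12 h. The groups did not overlap (exact permutation test, two-sided, p = 0.0286, the smallest it can give, and 0.171 after adjustment over 6 library measures). These shares are of all counts, so they also vary with the row Yam1. Yam1 took 46.26%, 44%, 43.15% and 13.14% of counts in replicates 1 to 4 at 6 h, and 12.57% to 39.93% at 12 h. Of the 12 mitochondrial mRNAs tested (of 13), 4 fell (mt-Co1, mt-Co2, mt-Co3 and mt-Nd1), all 12 were lower at an unadjusted p under 0.05 (3.90% of all genes were), and 11 did not overlap (2.11% of all genes), with a median log2 fold change of -1.85. These mitochondrial lists were set after the values were seen. Both ribosomal RNAs fell, and none of the 5 transfer RNAs tested passed, with 4 lower at an unadjusted p under 0.05.

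mt-Co1, a catalytic subunit of cytochrome c oxidase, stood at 4097, 4514, 1715 and 6057 CPM at 6 h and at 735, 594, 731 and 749 CPM at 12 h (log2 fold change -2.55, SE 0.35, edgeR adjusted p = 0.0119). The large ribosomal RNA mt-Rnr2 stood at 43293, 25028, 29781 and 55555 CPM at 6 h and at 9162, 7877, 8330.1 and 6801 CPM at 12 h (-2.26, SE 0.31, adjusted p = 0.0119). For mt-Co2, mt-Co3, mt-Nd1 and the small ribosomal RNA mt-Rnr1 the log2 fold changes were -2.08, -2.04, -2.04 and -2.21. In all 6 the 12 h libraries lay close together and the 6 h libraries were spread, with replicate 4 at 6 h the highest in mt-Co1, mt-Rnr2, mt-Rnr1, mt-Co2 and mt-Nd1. Replicate 4 also held the highest level of Malat1, an abundant RNA kept in the nucleus (8556 CPM, against 1690.5 to 3968 CPM in the other 6 h libraries and 1098 to 2102 CPM at 12 h). The part of replicate 4 and of nuclear RNA in the fall was not tested. Without replicates 3 and 4 at 6 h, 16 mitochondrial genes were lower at an adjusted p under 0.05. In that fit 81 of all 11079 genes tested passed in either direction (0.731%). With mitochondrial genes left out of the table only Gadd45g passed.

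Some of these counts could be shared with nuclear copies of mitochondrial sequence. mt-Co2 is 100% identical over 681 bases to the pseudogene Gm28661 on chromosome 1 and 95.9% identical over 684 bases to Gm13341 on chromosome 2. mt-Co3 is 100% identical over 783 bases to Gm28437 on chromosome 1. mt-Co1 is 97.6% identical over 1545 bases to Gm13340 on chromosome 2 and 99.8% identical over 483 bases to Gm29216 on chromosome 1. Since reads that map to several places were discarded, counts of mt-Co1, mt-Co2 and mt-Co3 are uncertain. None of these copies passed, with log2 fold changes of -2.86 (Gm28661), -2.83 (Gm28437), -2.36 (Gm13340) and -5.38 (Gm29216). Without 6 h replicate 3, Gm13341 (-2.58, adjusted p = 0.00638), Gm28661 (-3.07, adjusted p = 0.0225) and Gm29216 (-5.68, adjusted p = 0.0369) passed. mt-Rnr1 and mt-Rnr2 had no other transcript at 95% identity or more over 200 bases.

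Kcnq1ot1 lies antisense to the potassium channel gene Kcnq1 (chr7:143203458-143296549, minus strand), and its exon overlaps exons of Kcnq1, so the counts cannot be assigned to one strand where the counting is not stated to use strand. It stood at 109, 97.6, 138 and 160.2 CPM at 6 h and at 34.1, 16.7, 40.6 and 37.4 CPM at 12 h (log2 fold change -1.96, SE 0.33, adjusted p = 0.0298). Parts of Kcnq1ot1 also match 3 other transcripts at 95% identity or more, the longest C230072F16Rik at 96.1% over 431 bases. Hist1h2ao, a gene for histone H2A (chr13:21810465-21810944, plus strand), stood at 169.9, 162, 302 and 227 CPM at 6 h and at 57.3, 72.8, 51.4 and 39.1 CPM at 12 h (-1.95, SE 0.31, adjusted p = 0.0216). It is uncertain too, since 11 other transcripts match it at 95% identity or more, among them Hist1h2ap at 100% over 452 bases. Neither gene's groups overlapped. Messages of replication-dependent histones normally end in a stem-loop and carry no poly(A) tail, which is what the kit's primer binds. Nuclear-retained RNAs as a list (Malat1, Neat1 and Meg3) had no member that passed, and a median of -0.62.

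**Figure D4:**
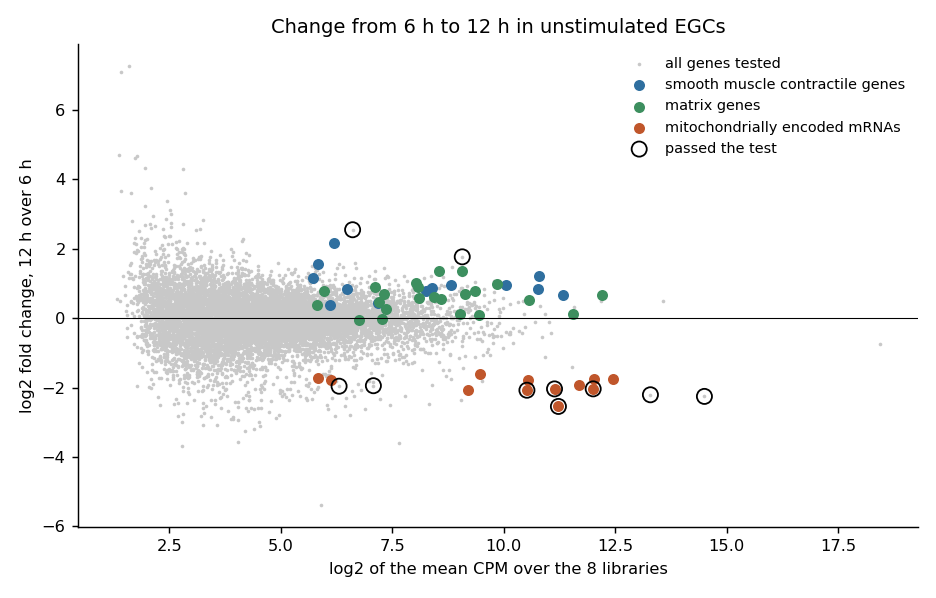
Log2 fold change from 6 h to 12 h against the log2 of the mean CPM over the 8 libraries for 10143 genes (grey), with 3 lists in colour and rings around the 10 genes that passed the test. Mitochondrial mRNAs lie between -2.55 and -1.62, and the contractile genes lie above 0.

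Inflammatory genes did not pass the test, with none of 13 tested NF-kB target and chemokine genes passing, 10 of 13 changes negative and a median of -0.54. Saa3, an acute-phase serum amyloid, stood at 334, 430.2, 707 and 15.0 CPM at 6 h and at 27.7, 25.7, 31.4 and 33.7 CPM at 12 h (log2 fold change -3.61, SE 0.86, edgeR adjusted p = 0.302). Here 3 of the 6 h libraries lay above all 12 h libraries, and replicate 4 lay below all of them. Ptgs2, the inducible cyclooxygenase (-0.30, SE 0.37), and Csf1, the macrophage growth factor (0.74, SE 0.28), had overlapping groups. Ccl2, Ccl7 and Cxcl1, chosen after their values were seen, were the 3 of 13 members that were lower in all 12 h libraries (2.11% of all genes), with Ccl2, a monocyte-attracting chemokine, at 82.0, 125, 109 and 90.7 CPM against 20, 39.5, 38.5 and 55.9 CPM (-1.38, SE 0.33, adjusted p = 0.217). Of 14 macrophage markers 7 were tested, and none of them passed or separated the times. All 7 had negative changes, with a median of -1.74, and the summed level of the list overlapped between times, at 110 to 424 CPM at 6 h and 50.5 to 229 CPM at 12 h. Adgre1 was not in the table under the symbol searched, and Aif1 had 3 counts. The part of macrophages in the chemokine values was not tested.

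Metallothionein and zinc genes gave 3 of 3 negative changes, none of which passed (median -1.11). Of these, Slc30a1 stood at 119 CPM (24 counts) in replicate 3 at 6 h, but at 10.7 to 17.4 CPM in the other 6 h libraries. Mt1, a zinc- and copper-binding protein, stood at 542, 619, 687 and 568 CPM at 6 h and averaged 287 ± 66.9 CPM at 12 h (SD, n = 4), where its highest library was 387 CPM, so the times did not overlap (-1.07, SE 0.26, adjusted p = 0.222). Mt2 overlapped, at 139.9 to 509 CPM against 83.2 to 189 CPM. Txnip, a thioredoxin inhibitor that responds to glucose, did not pass and stood at 21.0, 73.2, 69.2 and 43.6 CPM at 6 h and at 149, 101, 176 and 176 CPM at 12 h (1.59, SE 0.37, adjusted p = 0.199). Among 12 ER chaperone genes none passed and 9 had positive changes, with Hsp90b1 at 363 to 386 CPM against 518 to 810.3 CPM (0.86, SE 0.25, adjusted p = 0.344) and Hspa5 close to level (0.11, SE 0.26).

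Cell cycle genes did not pass in either direction. Of 23 G2/M genes 20 had negative changes with a median of -0.64, and of 22 G1/S genes 17, with a median of -0.44. Top2a, the topoisomerase of dividing cells, stood at 96.0, 106, 311 and 53.7 CPM at 6 h and 80.5, 60.5, 87.9 and 75.4 CPM at 12 h. The summed G2/M level was 1390 CPM in replicate 3 at 6 h, against 438 to 520 CPM in the other 6 h libraries and 392 to 474 CPM at 12 h, so that the 3 other libraries of 6 h lay near those of 12 h. Replicate 3 held the highest summed level of erythroid genes as well (662 CPM, against 0 to 188 CPM in the other 6 h libraries and 8.51 to 113 CPM at 12 h). Interferon-stimulated genes had a median of -1.28 over 7 tested genes and none passed. Of the 7, 6 had negative changes, and in 2 every 12 h library lay below every 6 h library (2.11% of all genes tested). The summed level of the list was 112 to 195 CPM at 6 h and 53.6 to 79.5 CPM at 12 h.

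The remaining lists had no member that passed, and their medians lay between -0.78 and 0.60. They were the immediate early genes (-0.27), ERK feedback genes (0.04), circadian clock genes (-0.30), sterol synthesis genes (0.06), fatty acid synthesis genes (0.19), amino acid response genes (0.02), heat shock genes (0.05), hypoxia and glycolysis genes (-0.38), glucose and growth factor withdrawal genes (-0.17), NRF2 targets (-0.27), p53 targets (0.07), ribosome biogenesis genes (0.02), TGF-beta and YAP targets (0.13), BMP pathway genes (0.13), Notch pathway genes (-0.27), Wnt pathway genes (0.60), glucocorticoid-responsive genes (-0.33) and prostaglandin genes (-0.78). Markers of neurons (-0.37 over 14 genes), myelin and Schwann cells (-0.66 over 4) and interstitial cells of Cajal (0.13 over 3) had no member that passed, nor had the 1 tested marker each of mesothelial, endothelial and epithelial cells. The 3 erythroid genes had a median of -2.05. Depth limits these statements, since a single count in replicate 3 at 6 h weighs 4.94 CPM after scaling.

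Unstimulated EGCs at 24 h give the next time step. No gene passed between 24 h and 12 h in the 12 unstimulated libraries (0 of 11901, 0%, edgeR), with 116 at an unadjusted p under 0.05. That fit shares its spread estimate over all times, and the spread was wider at 6 h than at 12 h. With 24 h and 12 h alone in the fit 2 of 11872 genes passed, and 730 were at an unadjusted p under 0.05. In the 12-library fit that unadjusted threshold was met by 5 of 13 contractile genes (median log2 change from 12 h to 24 h 0.42), 8 of 22 G1/S genes (0.61) and 7 of 23 G2/M genes (0.67). An absence of calls therefore does not show equal levels. Between 24 h and 6 h, a comparison that shares its 6 h libraries with the one above, 195 genes passed (1.64%), 120 higher and 75 lower. This count rests on the libraries chosen: it was 30 with only those 2 times in the fit and 51 to 684 when single libraries were left out (684 without 6 h replicate 4, 509 without replicate 1 and 322 without replicate 3, and 51 to 60 without 24 h replicate 2, 3 or 4, and 112 and 119 without 12 h replicates 1 and 3). In the 12-library fit, 9 of 13 contractile genes were higher at 24 h than at 6 h (Acta2, Cald1, Lmod1, Myh11, Mylk, Smtn, Tagln, Tpm1 and Tpm2), with a median of 1.36. Acta2 had a change of 1.36 (SE 0.28, adjusted p = 0.0165) and Lmod1 of 2.57 (SE 0.37, adjusted p = 0.00112). In matrix genes 6 of 23 were higher (Col4a1, Col4a2, Col6a3, Fn1, Lox and Loxl2), 11 of 12 mitochondrial mRNAs were lower, and so were Mt1 and Mt2. Whether these members pass with only 24 h and 6 h in the fit was not examined. In that fit 8 mitochondrial genes were lower, against 17 in the 12-library fit. Hist1h2ao stood at 83.6 to 144 CPM at 24 h.

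TME-CM EGCs give the same time step in 8 separate libraries. Whether the 6 h libraries of either medium were collected or prepared apart from the 12 h libraries is not given in the labels. An effect of time and one of such handling therefore cannot be told apart. In them 63 of 12126 genes passed between 12 h and 6 h (0.52%), 23 higher and 40 lower, in a fit with the unstimulated libraries (16 in all). The count was 349 without TME-CM 6 h replicate 2, 102 without unstimulated 6 h replicate 3, and 38 and 33 without TME-CM 12 h replicates 2 and 4. Mitochondrial transcripts fell there too, with 12 of 12 mRNAs and both ribosomal RNAs passing and a median of -2.52 for the mRNAs. The mitochondrial share of counts was 10.67% to 25.01% at 6 h and 2.041% to 3.228% at 12 h in TME-CM EGCs. The log2 changes were -3.31 for mt-Co1 (SE 0.32, edgeR adjusted p = 6.36e-07), -3.33 for Kcnq1ot1 (SE 0.38, adjusted p = 6.06e-06) and -2.08 for Hist1h2ao (SE 0.33, adjusted p = 0.000629). Gadd45g rose there, with 4.90 to 37.7 CPM at 6 h and 76.1 to 114 CPM at 12 h (1.92, SE 0.41, adjusted p = 0.0192), and the difference from unstimulated EGCs was -0.66 (SE 0.57, adjusted p = 0.964).

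For Dlk1 and the contractile genes no difference between media passed the test. Dlk1 stood at 284, 216, 409 and 287 CPM at 6 h and 283, 296, 316 and 344 CPM at 12 h in TME-CM EGCs (0.05, SE 0.26). The difference in its time effect from unstimulated EGCs was -1.75 (SE 0.37), which did not pass after adjustment over all genes (edgeR adjusted p = 0.0689, unadjusted 5.68e-05). Of the 13 contractile genes 6 had positive changes in TME-CM EGCs, with a median of -0.31, and none passed. The time effect differed at an unadjusted p under 0.05 in 9 of the 13, against 660 of all 12126 genes, and none of the 13 differences passed, the lowest adjusted p being 0.207 (Tpm1, -1.32, SE 0.32). Lmod1 differed by -2.23 (SE 0.92, adjusted p = 0.849).

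The time effect differed between media in 7 of 12126 genes (0.0577%). It was more positive in TME-CM EGCs for Lcn2, Saa3, Ccl7, the metalloproteinases Mmp3 and Mmp9 and the cathepsin Ctsh, and more negative for Gm13889. The count was 18 without unstimulated 6 h replicate 4, 14 without TME-CM 6 h replicate 2, and 4 without unstimulated 6 h replicate 2 or TME-CM 12 h replicate 4. Ccl7, a monocyte chemokine, stood at 28.5, 42.3, 61.7 and 17.6 CPM at 6 h and 5.15, 4.46, 11.3 and 13.2 CPM at 12 h in unstimulated EGCs, and at 353, 226, 347 and 388 CPM and 529, 522, 655 and 935 CPM in TME-CM EGCs. Its time effects were -1.95 (adjusted p = 0.0222 in the 16-library fit, 0.234 in the fit of 8) and 1.01 (adjusted p = 0.182), with a difference of 2.95 (SE 0.52, adjusted p = 0.0126). Saa3 stood at 225 to 532 CPM at 6 h and at 6340.0 to 8770.0 CPM at 12 h in TME-CM EGCs (4.11, adjusted p = 0.0124), while its unstimulated change did not pass, and the difference was 7.66 (SE 0.995, adjusted p = 0.00582). Lcn2, an iron-siderophore binding protein, differed by 6.90 (SE 0.88, adjusted p = 0.000582).

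**Figure D5:**
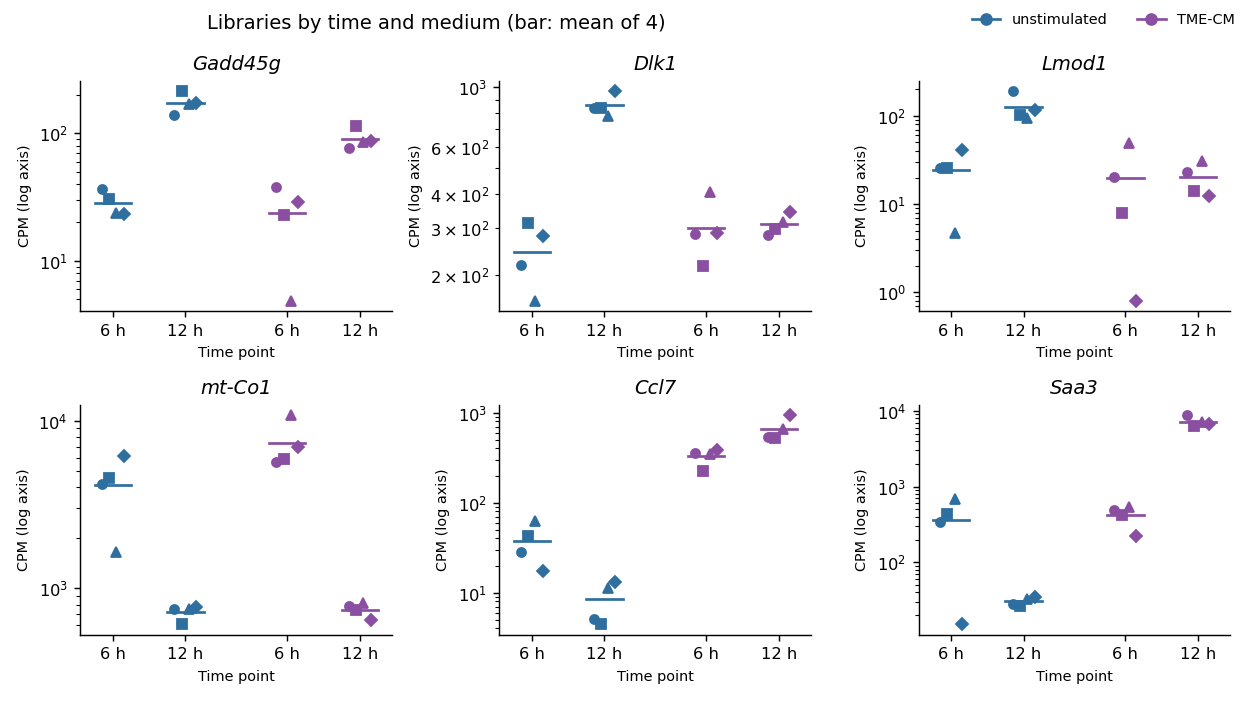
CPM on log axes for 6 genes in unstimulated (blue) and TME-CM (purple) EGCs at 6 h and 12 h (marker shape gives the replicate, bars the mean of 4). Gadd45g at 12 h lies above and mt-Co1 at 12 h below all 6 h libraries of the same medium. Dlk1 and Lmod1 overlap between times in TME-CM EGCs, and Saa3 at 12 h lies between 26.4 and 34.7 CPM in unstimulated and between 6340.0 and 8770.0 CPM in TME-CM EGCs.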

How the data were processed

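QuantSeq 3′ mRNA libraries were sequenced by the authors, who ran FastQC 0.11.7 and fastq-mcf on the reads, mapped them with HISAT2 (build mm10), dropped multi-mapping reads and counted the rest per gene with HTSeq. The deposited values are raw whole-number counts for 43472 gene symbols. The annotation, the strand option and any UMI handling are not given in the sources used here, so counts may include PCR copies. The CPM worth of 3 counts covers counting error only. The analysis used R 4.3.3, edgeR 4.0.16, limma 3.58.1 and DESeq2 1.42.0. Genes were kept by filterByExpr (minimum count 10, 10143 of 43472), libraries scaled by TMM, and 12 h tested against 6 h in the 8 libraries by the robust quasi-likelihood test, with Benjamini-Hochberg adjusted p under 0.05 as the call. Standard errors are the log2 fold change over the square root of F. CPM values use TMM-scaled library sizes of the fit they come from, 8 libraries unless 24 h or TME-CM values are given. The TME-CM comparison used 16 libraries and the 24 h comparison 12, each with 1 mean per group. Variance shares used variance-stabilized counts. The test was also run on counts simulated with equal dispersion in both groups. That run does not cover the unequal spread of these libraries. Named genes are, per direction, up to 12 called genes by size of change (non-overlapping libraries, mean CPM 5 or more), filled to 6 by lowest p, and in each list up to 3 members with the highest CPM where none was called. Genes named outside this rule were chosen after seeing their values, and the members and lists were chosen with earlier results of these data known. Some genes are not reported here. Copies were found with blastn among GENCODE M21 transcripts. Alternatives are given in the closing section.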

Additional observations from a re-analysis of the deposited data

Results flagged for a closer look

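Among 324 groups of 4 libraries examined (117 genes, library measures and list sums at 2 times), 25 held 1 library far from the other 3 by Dixon's criterion (7.72%, where chance gives about 1 in 20), and 14 of the 25 were replicate 3 at 6 h.

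In replicate 3 at 6 h the values above the other 3 libraries were Atf4 (400 CPM, others 190 to 197), Hspa5 (1880, others 1100 to 1220), Slc30a1 (119, others 10.7 to 17.4), Wdr43 (588, others 161 to 229) and Tubb3 (232, others 53.3 to 61.0). Its values below the others were Pkm (400, others 546 to 575), Pgam1 (93.9, others 249 to 270), Sparc (1960, others 4060 to 4280) and Ngfr (24.7, others 252 to 285). Its summed CPM stood apart for ER chaperone genes (3590), G2/M genes (1390) and ribosome biogenesis genes (2590), which were high, and for NRF2 targets (1930) and markers of interstitial cells of Cajal (24.3), which were low. Replicate 4 at 6 h stood apart in Pmp22 (41.1 CPM, others 79.1 to 81.6) and in the share of counts on the row Yam1 (13.1%, others 43.2% to 46.3%).

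At 12 h replicate 2 stood apart in mt-Co1 (594 CPM), Jun (209), Sqstm1 (380) and Mt1 (387), replicate 4 in mt-Co2 (661), Birc5 (28.6) and the summed p53 targets (1490), replicate 3 in Mcm3 (23.7) and replicate 1 in Lef1 (9.09).

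The change from 6 h to 12 h differed between TME-CM and unstimulated EGCs in 7 genes by the interaction term of the 16-library edgeR fit. The differences, TME-CM minus unstimulated on the log2 scale, were 6.90 for Lcn2, 7.66 for Saa3, 3.43 for Mmp9, 3.67 for Mmp3, 2.95 for Ccl7 and -3.00 for Gm13889. For Ctsh the fitted difference of 9.04 depends on the prior count, since all 4 TME-CM libraries of 6 h were at 0.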

How the results depend on the processing

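The 10 genes that passed between 12 h and 6 h became 14 with DESeq2 size factors, 60 without a filter, 100 by the DESeq2 Wald test, 47 by limma voom with quality weights, 61 in a fit of 12 unstimulated libraries, 72 in a fit of all 36, 21 after thinning to 256453 counts, and 11 without Yam1. They were 81 without 6 h replicates 3 and 4 and 1 with mitochondrial rows left out (both chosen after seeing the data), and 1 to 38 when single libraries were left out. All 10 genes were kept by each fit that gave 10 or more calls. No gene named by the main rule changed sign. The cause of the movement was not tested. The share of variance on time was 15.9% to 26.8% when single libraries were left out, with exact permutation p from 0.0286 (24.3%, without 6 h replicate 3) to 0.686 (without 12 h replicate 4).

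The 7 genes whose time effect differed between media became 66 without a filter, and 4 to 18 when single libraries were left out (18 without unstimulated 6 h replicate 4, 14 without TME-CM 6 h replicate 2). The 63 genes of TME-CM EGCs became 232 without a filter, 170 without unstimulated 6 h replicates 3 and 4, and 33 to 349 when single libraries were left out. Between 24 h and 12 h the count was 0 when any library was left out and 2 with these 2 times alone. Between 24 h and 6 h it was 195, 30 with these 2 times alone, 391 without a filter and 51 to 684 when single libraries were left out.

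The replicate numbers were not taken as pairs, since the deviations of same-numbered 6 h and 12 h libraries correlated at 0.026, 0.072, 0.028 and 0.29, and not every library matched its own number best. With a replicate block 12 genes passed between 12 h and 6 h, 5 differed between media, 53 passed in TME-CM EGCs, none between 24 h and 12 h, and 80 between 24 h and 6 h. Depth limits low genes most at 6 h, where 3 counts correspond to 0.648 to 11.7 CPM.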
